A study of Homo sapiens with 12 samples.

Results

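Cytosolic J-domain cochaperones are described here across 12 RNA-seq libraries of 2 human cancer cell lines. The members are 9 DNAJA and DNAJB genes grouped as acting in the cytosol and nucleus, namely DNAJA1, DNAJA2, DNAJA4, DNAJB1, DNAJB2, DNAJB4, DNAJB5, DNAJB6 and DNAJB14. They were chosen by gene symbol and make up 9 of the 40295 genes in the deposited count table, with 1 identifier each. DNAJB14 is known as a protein anchored in the endoplasmic reticulum membrane whose J domain faces the cytosol, so it fits the label by its J domain rather than by its location.

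TOV-112D, an ovarian cancer line with endogenous p53-R175H, was treated for 3 h with the vehicle DMSO, with the pyrimidine trione UCI-1001 or with its analog UCI-1014, in 2 libraries per group. Saos-2, an osteosarcoma line, contributed 3 libraries of the p53-null parental cells and 3 of cells that carry a doxycycline-inducible wild-type p53 (p53-WT) from a lentivirus, with 16 h of induction in the labels of both. The study's text names a dose for the RNA of UCI-1001-treated cells only, so UCI-1014 was compared at an unstated dose. The cell lines were grown in different media and for different times and were never compared by a test. The sources do not state that replicates came from separate cultures, and p-values then measure only the spread between these libraries.

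J-domain proteins bind misfolded clients, hand them to HSP70 and stimulate its ATP hydrolysis, which locks the client in place. Type A members (DNAJA) resemble bacterial DnaJ and carry a zinc-binding region, and type B members (DNAJB) lack it. Several are classical targets of heat shock factor HSF1, which binds arrays of inverted GAA units called heat shock elements. DNAJA1 has also been described as a partner of misfolded p53 mutants.

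The promoter windows are shown first, because the members differ in whether such units lie near their start. RefSeq windows (GRCh38.p14) of 250 bases before and 50 bases from the transcript start on were available for all 9 members, 14 windows in all. The 2-unit motifs GAANNTTC and TTCNNGAA were searched on both strands, as was the 3-unit motif, which adds another unit 2 bases away in the alternating orientation. The 2-unit motifs also count inside a 3-unit match. A 3-unit motif was found for DNAJA1 and DNAJB6, 2 of the 9 members, against 0.608% of 27305 genes. A 2-unit motif was found for 5 members, which added DNAJA4, DNAJB1 and DNAJB4, against 16.2% of all genes. DNAJA2, DNAJB2, DNAJB5 and DNAJB14 held neither in their windows. The sequences below are read along the gene's strand, with the motif in capitals.
DNAJB6, chr7:157336843-157336915, plus strand, a 3-unit motif from base -131: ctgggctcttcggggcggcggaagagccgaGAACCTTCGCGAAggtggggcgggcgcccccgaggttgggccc
DNAJA1, motif at chr9:33025276-33025288, plus strand, a 3-unit motif from base 4 of the transcript: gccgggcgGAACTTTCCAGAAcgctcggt
DNAJB1, motif at chr19:14518467-14518474, minus strand, from base -77: gcggggcgGAAGGTTCtggagggg
DNAJB1, motif at chr19:14518437-14518444, minus strand, from base -47: gggctctgGAAGCTTCcgccggac
DNAJB4, chr1:78004811-78004878, plus strand, from base -98: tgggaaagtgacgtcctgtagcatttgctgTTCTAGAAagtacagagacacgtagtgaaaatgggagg
DNAJA4, motif at chr15:78264471-78264478, plus strand, from base -91: acctccgcGAAGGTTCtaggcctt
DNAJA4, motif at chr15:78264510-78264517, plus strand, from base -52: tccttgcgGAAGCTTCcgccggcg

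The DNAJB1 pair lies in the window of DNAJB1-201, the transcript that carried most of its signal, and the DNAJB4 site in that of DNAJB4-201. DNAJA1 has a further 2-unit match at chr9:33025075-33025082. The stretch around it, chr9:33025045-33025112, overlaps annotated exons of the neighbouring gene APTX. The stretch around the DNAJB1 pair, chr19:14518407-14518504, overlaps an annotated exon of DNAJB1-204. That around the DNAJA4 motifs, chr15:78264441-78264547, overlaps an annotated exon of DNAJA4-205. The stretches printed for DNAJB6 and DNAJB4 overlap no annotated exon. DNAJB1 has a further 2-unit match at base 2 of a downstream start. These matches describe letters in the reference and were not tested as binding sites.

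**Figure D1:**
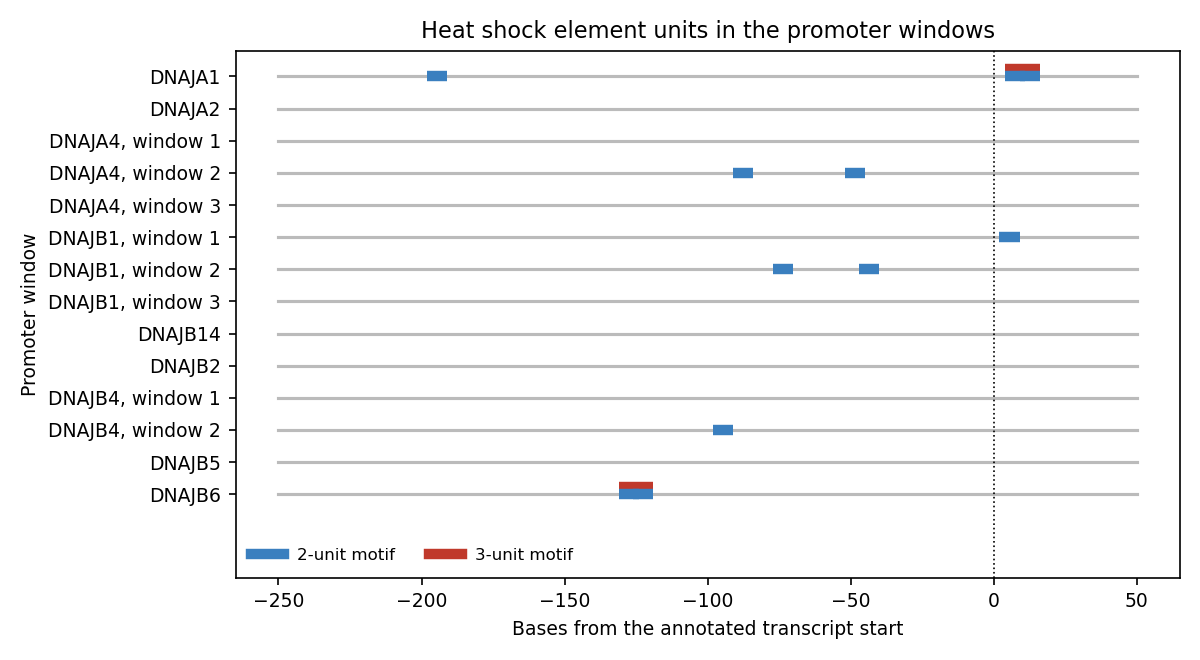
Position of heat shock element units (x axis, bases from the annotated transcript start) in the 14 promoter windows of the 9 members (y axis, 1 line per window). Blue bars are 2-unit and red bars 3-unit motifs, and 3-unit motifs are drawn for DNAJA1 and DNAJB6 alone.

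The libraries held between 17762027 and 20717898 counts in TOV-112D and between 19593655 and 24629558 in Saos-2. CDKN1A, a p53 target, was at 56.9 to 79.2 CPM (counts scaled to library size with TMM factors) in the p53-null libraries and at 7921 to 9039 CPM in the p53-WT libraries. The libraries numbered 1 stood apart from both others in each Saos-2 group, by a chi-square of 23 to 38.4 per degree of freedom between count columns, where the others differed by 3.07 to 3.79. Tissue markers were weak checks of the lines: the epithelial KRT18 was at 0 in all TOV-112D libraries and KRT8 at no more than 0.512 CPM, whereas KRT18 lay between 402 and 559 CPM in Saos-2. The epithelial EPCAM lay between 1.8 and 3.09 CPM in TOV-112D and at no more than 0.0996 CPM in Saos-2, and CDH1 between 0.819 and 1.79 CPM against at most 0.263 CPM. In Saos-2 the osteoblast markers SP7, IBSP and BGLAP did not exceed 0.199 CPM, while SPP1, which bone-forming cells secrete, lay between 13.5 and 44.7 CPM, against at most 0.657 CPM in TOV-112D.

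In DMSO-treated TOV-112D cells DNAJA1 was the most abundant member. Per transcript length it lay at 169 and 180 TPM, where TPM is an abundance corrected for transcript length and library size. DNAJB1 (95.7 TPM), DNAJB6 (85.2 TPM), DNAJA2 (69.1 TPM), DNAJB14 (44.2 TPM) and DNAJB2 (34.3 TPM) followed. DNAJB5 (11.7 TPM) and DNAJB4 (9.97 TPM) were low, and DNAJA4 was at 0.281 TPM. No neighbours in this order overlapped between their libraries. The place of DNAJB14 leans on a short fragment, DNAJB14-212, at 27.8 TPM from 41.1 and 37.5 estimated counts. Of DNAJA2 TPM, 48.4% was a transcript annotated for nonsense-mediated decay. With UCI-1001 DNAJB1 led with 1267 TPM ± 187 (SD, n = 2), and with UCI-1014 it reached 3778 TPM ± 477 (SD, n = 2). DNAJA1 was second in both, at 428 and 959 TPM. DNAJB4 stood at 85.6 TPM with UCI-1014, above DNAJA2 at 74.6 TPM, whose range overlapped that of DNAJB14.

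The pool of these transcripts changed in size and make-up. The summed members took 517 and 533 TPM in the DMSO libraries, 1914 and 2258 TPM in the UCI-1001 libraries, and 5010 and 5771 TPM in the UCI-1014 libraries. DNAJB1 made up 18 and 18.4% of the sum under DMSO, 59.3 and 62% under UCI-1001, and 68.7 and 71.3% under UCI-1014. Without DNAJB1 the sum still climbed from 422 and 437 TPM to 779 and 858 TPM and then 1569 and 1656 TPM. The groups did not overlap in any of these sums. In bulk RNA, a change in every cell and a larger change in some cells cannot be told apart.

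UCI-1001 was compared with DMSO to ask which members respond within 3 h. DNAJB1, DNAJB4, DNAJA1, DNAJB6 and DNAJB2 rose, 5 of the 9, and none fell, where 9.39% of the 14174 genes tested rose and 6.36% fell (edgeR quasi-likelihood test, adjusted p under 0.05). Of these, 3 passed a log2 fold change of 1, against 1.18% of all genes. The median log2 fold change of the members was 0.60, and that of all genes 0.00. DNAJA2, DNAJA4, DNAJB5 and DNAJB14 did not pass the test.

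DNAJB1, the main stress-inducible HSP40, lies at chr19:14514769-14560391. It was at 115 and 122 CPM with DMSO and at 1471 and 1854 CPM with UCI-1001. Both treated libraries were far above both controls. The log2 fold change was 3.81 ± 0.10 (SE, edgeR adjusted p = 2.4e-12), a 14-fold rise.

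DNAJB4, a close relative of DNAJB1 at chr1:77979175-78017964, was at 10.6 and 11.1 CPM with DMSO and at 47.6 and 62.4 CPM with UCI-1001. Its groups did not overlap, and the log2 fold change was 2.34 ± 0.15 (SE, edgeR adjusted p = 8.8e-08). DNAJA1, at chr9:33025273-33039907, was at 239 and 249 CPM with DMSO and at 570 and 622 CPM with UCI-1001. Its log2 fold change was 1.29 ± 0.05 (SE, edgeR adjusted p = 2.4e-10). As the most abundant member in the controls, it gained more CPM than DNAJB4 for a smaller fold.

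DNAJB6, known for holding back polyglutamine aggregation, lies at chr7:157335381-157417439. It went from 94.5 and 95.3 CPM with DMSO to 146 and 158 CPM after UCI-1001, and the log2 fold change was 0.68 ± 0.05 (SE, edgeR adjusted p = 2.7e-07). DNAJB2, which carries ubiquitin-interacting motifs and lies at chr2:219279342-219286898, went from 40.8 and 41.7 CPM to 62.6 and 62.9 CPM. Its log2 fold change was 0.60 ± 0.05 (SE, edgeR adjusted p = 3.0e-06). Neither gene overlapped between the groups, and both changes were less than 1 on the log2 scale.

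DNAJA2, a type A relative of DNAJA1 at chr16:46955362-46973674, was at 101 CPM in both DMSO libraries and at 108 CPM in both UCI-1001 libraries. The libraries did not overlap, but the log2 fold change of 0.10 ± 0.04 (SE) missed the threshold (adjusted p = 0.157, edgeR). DNAJB5, at chr9:34989641-34998900, was at 15 and 16.2 CPM with DMSO and at 15.2 and 15.9 CPM with UCI-1001, with a 95% interval of the log2 fold change from -0.25 to 0.24. DNAJB14, at chr4:99896248-99946618, was at 53.5 and 55.3 CPM against 52.3 and 56.4 CPM, with an interval from -0.13 to 0.13. For both, these intervals leave out changes as large as those of the 5 that rose. DNAJA4, at chr15:78264086-78282196, had 6 and 8 counts with DMSO and 9 and 10 counts with UCI-1001, and its interval from -0.76 to 1.47 includes both no change and a rise as large as that of DNAJA1.

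**Figure D2:**
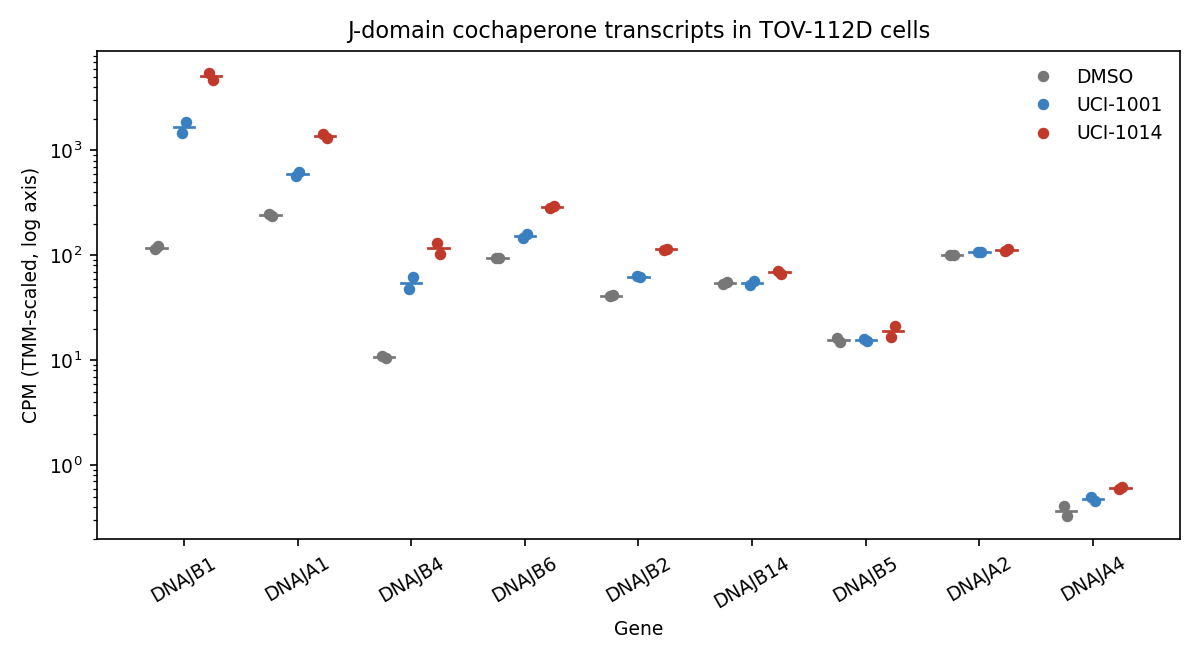
CPM of the 9 members (log axis) in the 6 TOV-112D libraries. Points are libraries and lines are group means (n = 2). DNAJB1 rises from 119 to 1662 and 5073 CPM, and DNAJA2 stays between 101 and 115 CPM.

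UCI-1014 was compared with the same DMSO libraries, so the comparisons share their controls. All members but DNAJA4 rose, 8 of 9, against 23.7% of the 14174 genes tested, and 5 of them passed a log2 fold change of 1, against 4.51% of genes. None fell, where 23.4% of all genes did. The median log2 fold change was 1.47 for the members and -0.02 for all genes.

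DNAJB1 was at 4678 and 5467 CPM with UCI-1014, and its log2 fold change against DMSO was 5.42 ± 0.10 (SE, edgeR adjusted p = 3.3e-14), a 42.7-fold rise. DNAJB4 reached 103 and 130 CPM, a log2 fold change of 3.42 ± 0.14 (SE, edgeR adjusted p = 8.0e-11). DNAJA1 reached 1324 and 1417 CPM, a log2 fold change of 2.49 ± 0.05 (SE, edgeR adjusted p = 3.6e-14). For each of these genes every UCI-1014 library lay above every UCI-1001 and DMSO library.

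DNAJB6 was at 281 and 296 CPM and DNAJB2 at 112 and 116 CPM with UCI-1014. Their log2 fold changes were 1.61 ± 0.05 and 1.47 ± 0.05 (SE, edgeR adjusted p = 2.5e-12 and 1.5e-11). DNAJB14 was at 66.5 and 71.4 CPM, above both DMSO libraries, with a log2 fold change of 0.34 ± 0.06 (SE, edgeR adjusted p = 3.2e-04). On summed TPM DNAJB14 did not pass (log2 difference 0.65, adjusted p = 0.0834, limma on log2(TPM + 1)).

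DNAJB5 and DNAJA2 passed the threshold by little. DNAJB5 was at 16.8 and 21.4 CPM with UCI-1014, a log2 fold change of 0.30 ± 0.11 (SE, edgeR adjusted p = 0.0392). Without UCI-1014 replicate 2 the change was 0.11 (adjusted p = 0.456), without DMSO replicate 2 it was 0.24 (adjusted p = 0.213), and without DMSO replicate 1 it was 0.36 (adjusted p = 0.0665), all with edgeR. Over all single omissions it ranged from 0.11 to 0.46. DNAJA2 was at 109 and 115 CPM, a log2 fold change of 0.15 ± 0.04 (SE, edgeR adjusted p = 0.0138), and the same 3 omissions gave an adjusted p of 0.0758, 0.0853 and 0.0796. With DESeq2 the adjusted p was 0.187 for DNAJB5 and 0.0711 for DNAJA2. DNAJA4 had 10 and 12 counts, and its log2 fold change of 0.70 ± 0.51 (SE) did not pass (adjusted p = 0.279, edgeR).

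The compounds were compared directly in 1 pair, over the same 6 libraries. With UCI-1014, 7 of 9 members were higher than with UCI-1001, against 17.2% of all genes tested, and none was lower, against 13.9%. DNAJB1 differed most, by 1.61 ± 0.08 on the log2 scale (SE, edgeR adjusted p = 4.8e-09), with a 95% interval of 1.43 to 1.79. DNAJA1 differed by 2.3-fold (95% interval 2.15 to 2.46), DNAJB4 by 1.08 ± 0.11, DNAJB6 by 0.92 ± 0.04 and DNAJB2 by 0.86 ± 0.05 on the log2 scale (SE, edgeR adjusted p from 1.8e-10 to 4.4e-06).

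DNAJB14 was called higher with UCI-1014 than with UCI-1001, by 0.34 ± 0.06 (SE, edgeR adjusted p = 6.0e-04), but not on summed TPM (log2 difference 0.43, adjusted p = 0.253, limma on log2(TPM + 1)). DNAJB5 was at the threshold, with a difference of 0.30 ± 0.11 (SE, edgeR adjusted p = 0.0497), and leaving out either DMSO library, either UCI-1001 library or UCI-1014 replicate 2 raised its adjusted p to between 0.0602 and 0.476, with differences of 0.12 to 0.34. DNAJA2 differed by 0.05, with an interval of -0.05 to 0.14. DNAJA4 differed by 0.35, with an interval of -0.68 to 1.38. Since the dose of UCI-1014 is not given, dose and compound cannot be told apart in these differences.

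**Figure D3:**
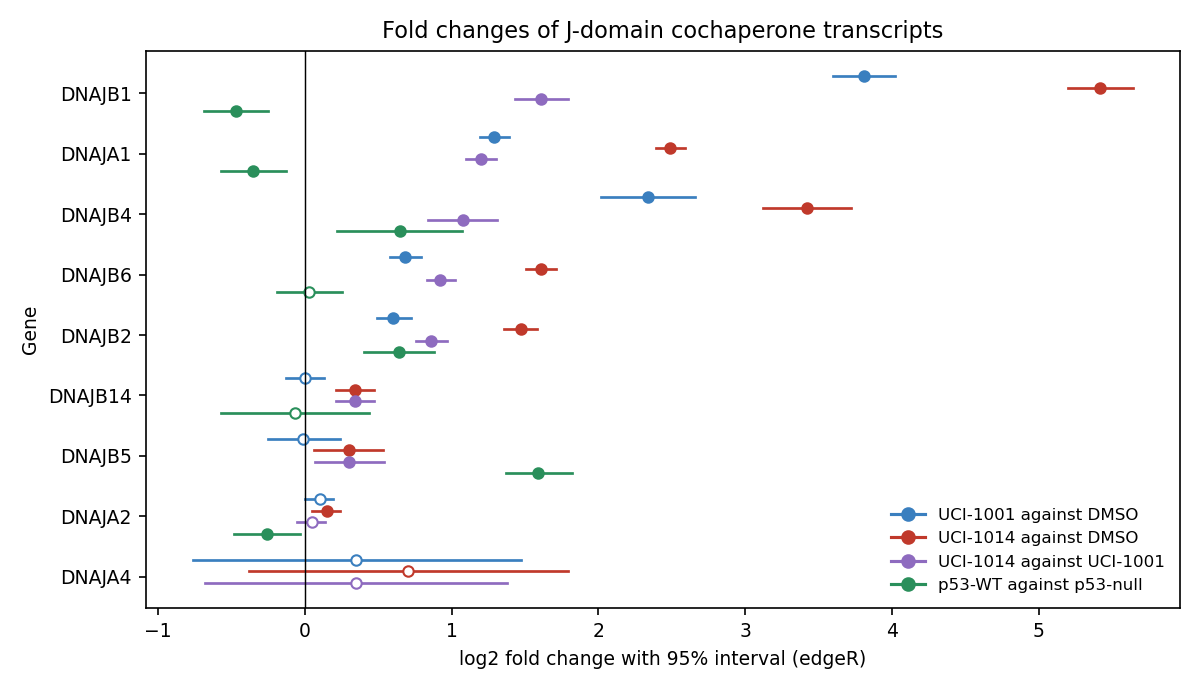
Log2 fold change (x axis) with its 95% interval for the 9 members in 4 comparisons, from edgeR. Filled points passed an adjusted p of 0.05 and open points did not. DNAJB1 lies at 3.81 and 5.42 with the compounds and at -0.47 with p53-WT.

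The transcripts behind each gene moved unequally. Shares were taken from the TPM that the authors' kallisto run assigned to each annotated transcript (GENCODE v44 names), without a test and without the uncertainty of that assignment. For DNAJB6, the shorter coding form DNAJB6-204, with 241 codons, is the cytosolic b form, and DNAJB6-201, with 326 codons, is the longer, nuclear a form. DNAJB6-204 was at 47.5 and 50.1 TPM in DMSO, 83.8 and 94.2 TPM in UCI-1001 and 192 and 210 TPM in UCI-1014 libraries. DNAJB6-201 lay at 29.4 and 30.2 TPM, 35.3 and 35.6 TPM, and 35.2 and 37.9 TPM in the same groups. The share of the long form in DNAJB6 TPM was thus 35%, 23.3% and 11.7%, and the rise of the gene was carried mainly by the short form. DNAJB6-214, which has no annotated coding sequence, was at 0.523 and 1.99 TPM with DMSO, from 3.08 and 11.2 estimated counts. It lay at 7.69 and 13.1 TPM with UCI-1001 and at 23.5 and 39.7 TPM with UCI-1014.

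These DNAJB6 forms end at different exons. The last exon of DNAJB6-204 is at chr7:157385541-157386324, and that of DNAJB6-201, farther downstream, at chr7:157416016-157417439. The end of DNAJB6-214, at chr7:157372147-157372227, lies upstream of both. After 3 h, the largest gain in TPM was therefore in a form that ends before the last exon of the long one.

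DNAJB2 also has a short form, DNAJB2-202 with 277 codons, and a long form, DNAJB2-201 with 324 codons, which is known to be held at the endoplasmic reticulum by its lipid-modified end. The short form was at 24.3 TPM ± 0.52 in DMSO, 43.1 TPM ± 1.42 in UCI-1001 and 78.9 TPM ± 1.51 in UCI-1014 libraries (SD, n = 2). The long form was at 5.26 TPM ± 0.486, 5.96 TPM ± 0.823 and 8.62 TPM ± 0.442 (SD, n = 2). Its share of DNAJB2 TPM was 15.4%, 11.1% and 8.95%. In TOV-112D the gene was therefore mostly the short form in every group.

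DNAJB1 and DNAJA1 were carried by 1 transcript each, with DNAJB1-201 at 91% of DNAJB1 TPM with DMSO and over 98% with either compound, and DNAJA1-201 at 99.2% in all 3 groups. DNAJB4 was split: DNAJB4-201, whose window holds the printed site, took 47.7%, 59.5% and 64.8% of DNAJB4 TPM in the DMSO, UCI-1001 and UCI-1014 groups. DNAJB4-206, which starts far upstream and has no annotated coding sequence, went from 1.18 to 10.8 and 23.1 TPM. DNAJB4-205, also from the upstream start, went from 3.54 to 6.24 and 6 TPM.

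In DNAJA2 a transcript annotated for nonsense-mediated decay, DNAJA2-202, took 48.4%, 52.6% and 47.3% of the TPM in the same groups. In DNAJB14 a coding fragment of 339 nt, DNAJB14-212, took 63% with DMSO and 67.4% with either compound, and its TPM differed widely between the UCI-1001 libraries, from 24.9 to 47.9 TPM. TPM of DNAJB14 therefore leans on 1 short transcript, and the counts are the firmer measure. In DNAJA4 a retained-intron transcript, DNAJA4-209, took 71.8% to 96.6% of the little TPM there was in the TOV-112D groups.

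**Figure D4:**
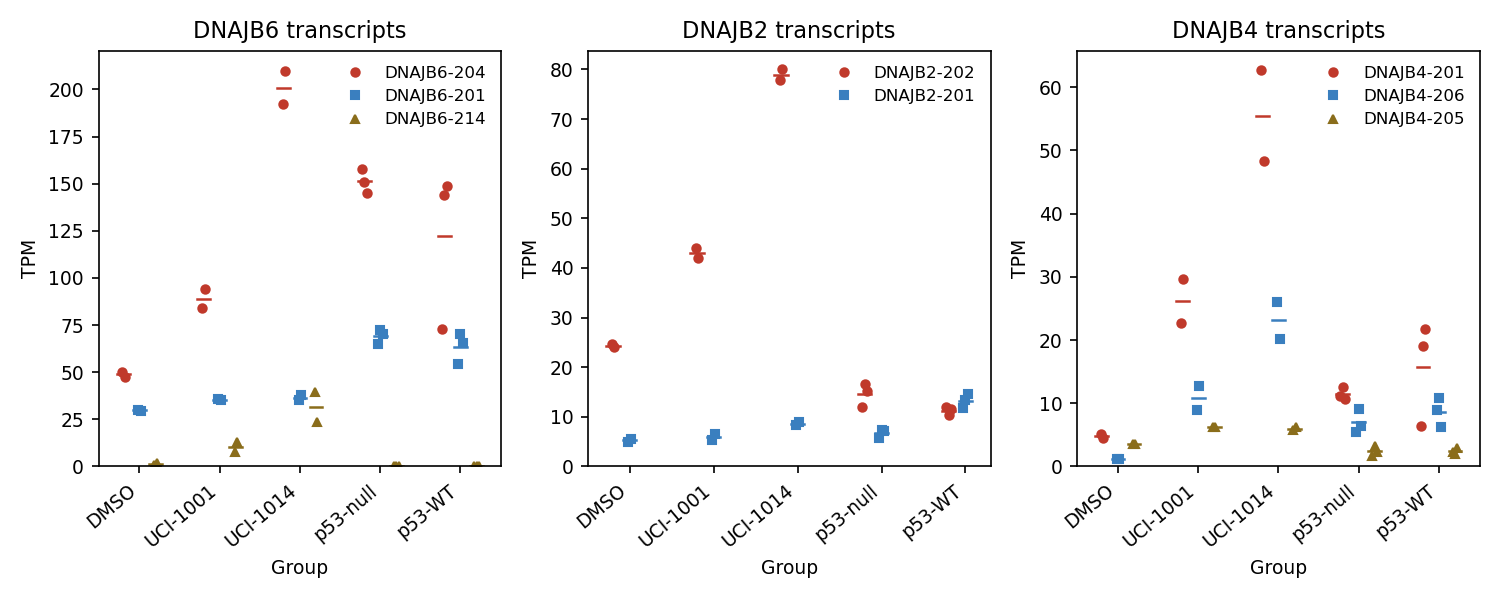
TPM (y axis) of the main transcripts of DNAJB6, DNAJB2 and DNAJB4 in each library, by group, with lines at group means (n = 2 in TOV-112D, n = 3 in Saos-2). DNAJB6-204 climbs to 201 TPM with UCI-1014 while DNAJB6-201 is at 36.5 TPM, and in p53-WT cells DNAJB2-201 is at 13.3 TPM and DNAJB2-202 at 11.3 TPM.

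In Saos-2 cells the p53-WT and p53-null lines were compared to ask whether the members differ between them. The p53-WT cells carry a lentivirus and the p53-null cells are the parental line. Effects of p53 and of making the engineered line therefore cannot be told apart in these differences. DNAJB5, DNAJB4 and DNAJB2 were higher with p53-WT, and DNAJB1, DNAJA1 and DNAJA2 were lower. Of the 8 members tested, 3 were higher, where 33.5% of the 14272 genes tested were, and 3 were lower, where 33% were. The share called, 6 of 8, is near the 66.5% of all genes called in either direction, so it says little about the members. DNAJA4 did not pass the filter on low counts.

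DNAJB5 changed most. It was at 21.4, 21.6 and 21.8 CPM in p53-null cells and at 61.1, 66.7 and 67.5 CPM in p53-WT cells. The groups were far apart, with a log2 fold change of 1.59 ± 0.10 (SE, edgeR adjusted p = 1.5e-07). It was the only member past a log2 fold change of 1 in this comparison, against 17.9% of genes above 1.

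DNAJB2 was at 32, 35.7 and 37.8 CPM in p53-null cells and at 52.1, 55.2 and 57.2 CPM in p53-WT cells, a log2 fold change of 0.64 ± 0.11 (SE, edgeR adjusted p = 3.0e-04). By TPM DNAJB2-201, the long form of this gene, was at 6.73 TPM ± 0.83 in p53-null and 13.3 TPM ± 1.47 in p53-WT cells, while DNAJB2-202 was at 14.7 TPM ± 2.42 and 11.3 TPM ± 0.789 (SD, n = 3). Scaled to library size as the genes were, the estimated counts of DNAJB2-201 came to 13.8 to 15 CPM in p53-null and 31.5 to 34.8 CPM in p53-WT libraries, without overlap. Those of DNAJB2-202 overlapped, at 16.8 to 20 CPM and 14.4 to 20.5 CPM, with p53-WT replicate 1 the highest. The long form took 27.7% of DNAJB2 TPM in p53-null and 44.8% in p53-WT cells. On summed TPM the gene did not pass (log2 difference 0.27, adjusted p = 0.234, limma on log2(TPM + 1)).

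DNAJB4 was at 25.9, 30 and 30.1 CPM in p53-null cells and at 29.7, 50.6 and 54.3 CPM in p53-WT cells. The lowest p53-WT library, replicate 1, lay within the p53-null range, and the log2 fold change was 0.65 ± 0.19 (SE, edgeR adjusted p = 0.0124).

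DNAJB1 was at 177, 184 and 188 CPM in p53-null cells and at 125, 128 and 143 CPM in p53-WT cells, so that no libraries overlapped. It fell by 0.47 ± 0.10 on the log2 scale (SE, edgeR adjusted p = 0.00167). DNAJA1 was at 409, 410 and 411 CPM against 295, 330 and 337 CPM, and fell by 0.35 ± 0.10 on the log2 scale (SE, edgeR adjusted p = 0.00879). DNAJA2 was at 136, 138 and 157 CPM against 118, 119 and 123 CPM, and fell by 0.26 ± 0.10 (SE, edgeR adjusted p = 0.0421). The DNAJA2 call was lost on leaving out any single library but p53-WT replicate 1, with adjusted p from 0.0703 to 0.131, and with DESeq2 (adjusted p = 0.0507).

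DNAJB6 was at 292, 293 and 328 CPM in p53-null cells and at 297, 315 and 319 CPM in p53-WT cells, with a 95% interval of the log2 fold change from -0.19 to 0.25. DNAJB14 was at 53.2, 64.6 and 69.1 CPM against 35.1, 69.7 and 73.5 CPM, and its replicates spread too far for a call (interval -0.57 to 0.44). Without the libraries numbered 1 of both lines, an omission chosen after seeing the data, both were called higher with p53-WT, by 0.12 and 0.29 on the log2 scale (adjusted p = 0.0401 and 0.0077, edgeR), and 8 of 8 tested members passed, where 74.3% of all genes were called in either direction. DNAJA4 had 1, 2 and 5 counts in p53-null and 9, 9 and 14 counts in p53-WT libraries.

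**Figure D5:**
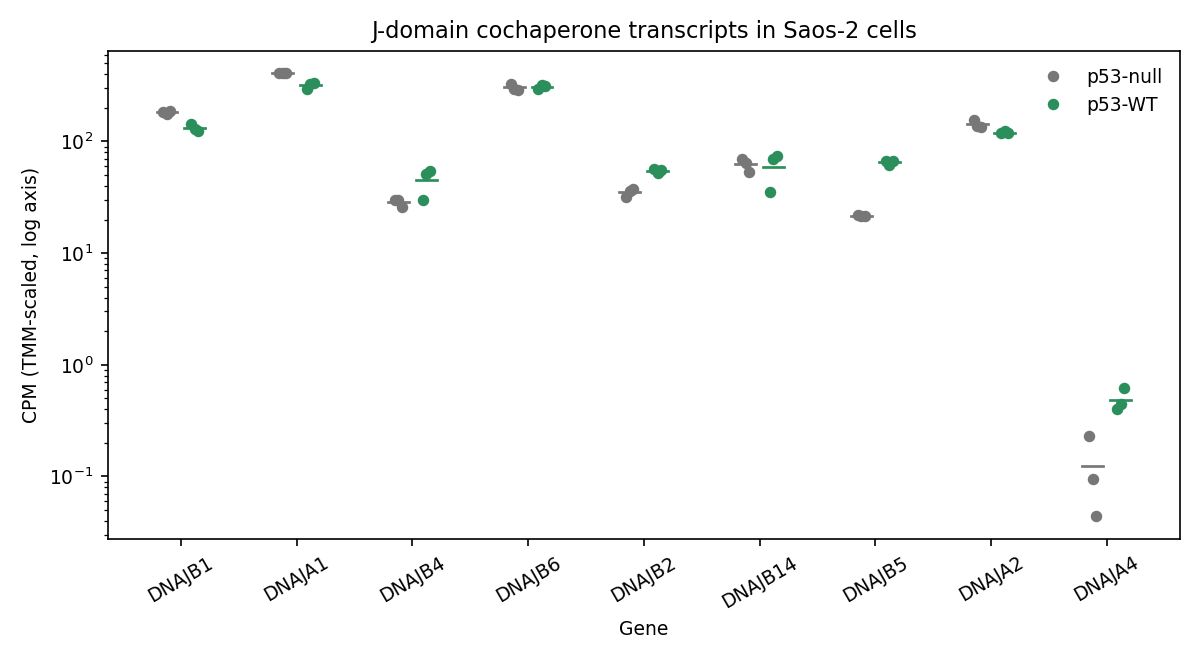
CPM of the 9 members (log axis) in the 6 Saos-2 libraries. Points are libraries and lines are group means (n = 3). DNAJB5 lies at 21.6 CPM in p53-null and 65.1 CPM in p53-WT cells, and DNAJB1 at 183 and 132 CPM.

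In p53-null Saos-2 cells DNAJB6 led by TPM, with 309 TPM ± 13.8, followed by DNAJA1 with 258 TPM ± 19.6 and DNAJB1 with 127 TPM ± 9.23 (SD, n = 3). DNAJA2 stood at 94.4 TPM. DNAJB2, DNAJB14 and DNAJB4 lay between 21.9 and 24.8 TPM and overlapped with their neighbours. DNAJB5 was at 14.1 TPM in p53-null and 35.4 TPM in p53-WT cells, where it took the fifth place and overlapped with DNAJB4 at 30.6 TPM. DNAJB6 and DNAJA1 led in p53-WT cells as well, at 287 TPM and at 138 to 193 TPM. A further DNAJB6 transcript without coding sequence, DNAJB6-217, took 17.3%, 21.3% and 23.3% of DNAJB6 TPM in the p53-null libraries and 16.2%, 18.6% and 38.6% in the p53-WT libraries, the highest in replicate 1, and was nearly absent from DMSO-treated TOV-112D cells. In p53-null cells DNAJB6-217 averaged 64 TPM, more than the gap between the means of DNAJB6 and DNAJA1. The first place of DNAJB6 in p53-null cells therefore leans on this short transcript. Summed over the members, the p53-null libraries held 816 to 915 TPM and the p53-WT libraries 674 to 770 TPM.

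Of 4 tested members of the remaining DNAJA and DNAJB genes, none was called with UCI-1001, and 2 rose with UCI-1014, DNAJB9 of the endoplasmic reticulum lumen (log2 fold change 0.99 ± 0.14, SE, edgeR adjusted p = 3.9e-05) and the membrane-anchored DNAJB12 (0.52 ± 0.06, SE, edgeR adjusted p = 5.3e-06). Both rose more with UCI-1014 than DNAJB14 (0.34), DNAJB5 (0.30) and DNAJA2 (0.15), which are among the 9 genes described here. Of 30 DNAJC and other J-domain genes, 3 rose and 2 fell with UCI-1001, where 9.39% of all genes rose and 6.36% fell, and 10 rose and 7 fell with UCI-1014, where 23.7% rose and 23.4% fell. None of these passed 1 in either direction, and the median log2 fold change was 0.02 and 0.04. With p53-WT 8 of 28 tested were higher and 12 lower, against 33.5% and 33% of all genes, with DNAJC6, which uncoats clathrin vesicles, highest at 1.76 ± 0.14 and the histone cochaperone DNAJC9 lowest at -2.24 ± 0.11 (SE, edgeR adjusted p = 6.4e-07 and 2.5e-08).

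The HSP70 partners moved with the compounds: 9 of 10 HSP70 and HSP110 genes rose under each compound. Of all genes tested, 9.39% rose and 6.36% fell with UCI-1001, and 23.7% rose and 23.4% fell with UCI-1014. The medians of these 10 genes were 2.25 with UCI-1001 and 3.87 with UCI-1014 on the log2 scale. HSPA1A rose by 4.97 ± 0.06 and 6.81 ± 0.06 (SE, edgeR adjusted p = 2.3e-16 and 8.1e-18), and its reads are not cleanly separable from those of the near-identical HSPA1B. HSPA6 rose from 0.526 CPM to 555 CPM ± 127 and 1460 CPM ± 404 (SD, n = 2). Of 9 HSP70 cofactors, 4 rose and 1 fell with UCI-1001, and 4 rose and 2 fell with UCI-1014. The nucleotide exchange factor BAG3 rose by 2.98 ± 0.09 and 4.80 ± 0.09 (SE, edgeR adjusted p = 2.9e-11 and 3.6e-14). Of the heat shock factors, none of 3 was called with UCI-1001, and HSF2 and HSF4 fell with UCI-1014 (-0.76 ± 0.09 and -0.91 ± 0.35, SE, edgeR adjusted p = 7.8e-06 and 0.0435). HSF4 was near the floor, at 1.77 CPM with DMSO and 0.947 CPM with UCI-1014, where HSF2 was at 32.7 and 19.3 CPM. With p53-WT, 4 of the 10 HSP70 and HSP110 genes were higher and 5 lower, against 33.5% and 33% of all genes. HSPA1B was higher by 1.74 ± 0.11 on the log2 scale (SE, edgeR adjusted p = 1.7e-07), where DNAJB1 and DNAJA1 were lower.

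Patterns most like each of the 8 members tested in both lines were found among 12568 other genes that have a symbol and were tested in both, by the root mean square difference of log2(CPM + 0.5) from the control mean over 12 libraries. The closest to DNAJB1 were ZFAND2A, at a difference of 0.39, and EGR4, at 0.51, and those to DNAJA1 were PPP1R15A, at 0.13, and HSP90AA1, at 0.14. DNAJB4 was closest to ULBP1 (0.22) and THBS1 (0.34), and DNAJB6 to TXNRD1 (0.10) and MAP1LC3B (0.11). DNAJB2 was closest to AP5Z1 (0.11) and PSAT1 (0.12), and DNAJB5 to SPECC1 and BLMH (both 0.11). DNAJA2 and DNAJB14, which moved little, were closest to DPM1 and ZNF268 (both 0.05), and to CASD1 (0.08) and CLIC4 (0.09). No gene came as near to DNAJB1 as those nearest to the other members. This difference was not scaled and tends to grow with the size of a change. The larger value for DNAJB1 therefore does not show that its pattern is less shared.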

How the data were processed

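RNA-seq of 12 libraries was analysed. The authors quantified reads with kallisto v0.48.0 on GRCh38, summed the estimated counts of the transcripts of each Ensembl gene and deposited them as whole-number counts, not normalized, which they tested with DESeq2 v1.38.3. They also deposited expected counts and TPM per transcript for each library. Here counts were summed by symbol (36482 rows) and tested with edgeR 4.0.16 (TMM, filterByExpr, quasi-likelihood test, Benjamini-Hochberg over all genes) in R 4.3.3, with 1 fit per cell line over 14174 (TOV-112D) and 14272 (Saos-2) genes. CPM uses TMM-scaled library sizes. TPM was summed over transcripts matched by identifier to GENCODE v44 (165858 of 187626) and entered no main test. Transcripts are described where they took at least 10% of their gene's TPM in the mean of any group. Promoter windows came from RefSeq (GRCh38.p14).

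The members and all lists were chosen with earlier results of these data known. All 9 members are named. Of other lists, at most the 3 strongest rises and falls per comparison were eligible to be named. The alternatives used DESeq2 1.42.0, limma 3.58.1, other scaling, no filter, counts by identifier, a replicate block and omitted libraries. The fit was tested on simulated data. Depth was 17762027 to 24629558 counts per library. Some planned check genes are not reported here.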

Additional observations from a re-analysis of the deposited data

How the results depend on the processing

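The members called numbered 5 with UCI-1001 under every alternative run. With UCI-1014 against DMSO 8 were called, 6 to 8 when 1 library was left out, 6 with DESeq2 and 5 with limma on log2(TPM + 1), which lost DNAJA2, DNAJB5 and DNAJB14. For UCI-1014 against UCI-1001, 7 were called, 6 to 7 with 1 library left out and 5 with limma, which lost DNAJB5 and DNAJB14. For p53-WT against p53-null, 6 were called, and 5 to 6 with 1 library left out. Without the filter on low counts 6 were called as well, though DNAJA2 was lost (adjusted p = 0.0635, edgeR). DNAJA4, which the filter had removed, was then among them, at very low counts. Over all genes, 2233 were called with UCI-1001, 952 to 2540 with 1 library left out (952 without DMSO replicate 1, 1022 without DMSO replicate 2, 1187 without UCI-1001 replicate 2), 1139 with DESeq2 and 194 with limma. With UCI-1014, limma called 4015 genes and edgeR 6675. Between the compounds, DESeq2 called 2635 and limma 1682 genes, where edgeR called 4409. Of 461 single-member values under alternatives, 414 kept direction and side of the threshold, 33 lost the call (of DNAJA2, DNAJB2, DNAJB5 or DNAJB14), 1 (DNAJB6) gained it and 13 changed sign, of which DNAJB14 without both libraries numbered 1 was also called (adjusted p = 0.0077, edgeR).

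Changes of sign concerned values near 0 that were not called in the reported fits. DNAJB14 with UCI-1001 came to 0.00 with DESeq2 size factors, 0.00 with DESeq2, 0.02 without DMSO replicate 2, 0.05 without UCI-1001 replicate 1 and 0.22 with limma. DNAJB5 with UCI-1001 came to 0.05 without DMSO replicate 1 and 0.02 without UCI-1001 replicate 2. With 1 library left out, both ranged from -0.06 to 0.05. DNAJA2 between the compounds came to -0.02 with limma. In the Saos-2 pair DNAJB14 came to 0.01 without p53-null replicate 1, 0.20 without p53-WT replicate 1, 0.29 without both libraries numbered 1 and 0.22 with limma (-0.25 to 0.20 with 1 library left out), and DNAJB6 to -0.11 with limma. The cause of these shifts was not tested.

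Replicate numbers are shared between groups, but the labels do not say that a number marks a shared day or culture. Deviations of same-numbered Saos-2 libraries correlated at 0.122, 0.0452 and 0.0815, not all above 0.1, so the block is given here alone. With the replicate block, 5, 7 and 6 members were called in the TOV-112D comparisons and 6 in Saos-2, with DNAJB5 lost with UCI-1014 (adjusted p = 0.0605 against DMSO and 0.0773 against UCI-1001, edgeR). Same-numbered UCI-1001 and UCI-1014 libraries correlated at -0.188, and with their numbers crossed in the block, chosen after seeing the data, 4977 genes and 7 members were called. Depth limits DNAJA4 most.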
